A study of Schizosaccharomyces pombe with 18 samples.

Results

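The 10 genes described here encode enzymes of glycolysis, of gluconeogenesis and of the alcohol fermentation that follows glycolysis in the fission yeast Schizosaccharomyces pombe. They were taken by their standard names from a table of 7018 genes, with no threshold on a measured value, and are tdh1, gpd3, eno101, eno102, pyk1, pgk1, fba1, tpi1, adh1 and fbp1. All 10 were found and all 10 passed the filter on low values. RNA sequencing was done on 18 cultures in 6 groups, each of 3 biological replicates, made up of wild type and 5 deletion strains, named chp2D, mit1D, clr3D, clr2D and clr1D after the gene that the labels give as deleted. The deleted genes encode the subunits of SHREC, a complex of fission yeast heterochromatin that contains the histone deacetylase Clr3, the chromatin remodeler Mit1 and the HP1-type protein Chp2, and the question the design poses is how RNA levels differ when each subunit is missing.

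All strains are labelled h- and were grown in YES, a rich glucose medium, at 25 °C. Wild type is strain PY 42, with the alleles leu1-32, ura4-D18, his3-D1, arg3-D4 and ade6-210. The same 5 alleles are listed for mit1D::Natmx6 and for chp2D::KanR. The other deletions are clr1D::KanMX4 with ade6-210/216?, clr2D::his7+ with ade6-216 and clr3D::kanMX6 with ade6-210, each beside arg3D, his3D, leu1-32 and ura4-D18. The clr strains thus list arg3 and his3 in another form than wild type, and what that means is not stated. The libraries of wild type and the clr strains share one set of library codes, while each library of mit1D and chp2D carries a code of its own, so that for these 2 deletions the deletion and the library code cannot be told apart. Each genotype is represented by a single strain.

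Glycolysis splits glucose into pyruvate and yields ATP and NADH. Aldolase (fba1) cleaves fructose bisphosphate, triose phosphate isomerase (tpi1) interconverts the products, glyceraldehyde-3-phosphate dehydrogenase (GAPDH; tdh1 and gpd3) oxidises the triose, phosphoglycerate kinase (pgk1) makes ATP, enolase (eno101 and eno102) makes phosphoenolpyruvate and pyruvate kinase (pyk1) makes ATP and pyruvate. In yeast growing on glucose, pyruvate is largely turned into ethanol, the last step being catalysed by alcohol dehydrogenase (adh1). Gluconeogenesis runs most of these steps backwards, but it bypasses phosphofructokinase with fructose-1,6-bisphosphatase (fbp1), whose gene is a classic glucose-repressed gene of fission yeast. GAPDH and enolase are each encoded by a pair of genes, so that the level of one isozyme can be set beside that of its partner in the same library.

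The members of each pair differ in how far their reads can be told apart, which is why the sequences are shown first. In the RefSeq sequence of assembly ASM294v3, the coding sequences of tdh1 and gpd3 were identical at 940 of 1008 aligned bases (93.3%). Their longest identical run was 203 bases, and 328 of the 978 windows of 31 bases in gpd3 also occurred in tdh1. How reads that match both genes were counted is not given in the sources used here. The stretch of 60 bases with the most differences, coding bases 40 to 99, is shown with its 15 differing bases in capitals, for tdh1 at II:2807676-2807735 and for gpd3 at II:578770-578829, both on the plus strand.
tdh1: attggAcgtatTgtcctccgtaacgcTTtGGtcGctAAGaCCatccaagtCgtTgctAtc
gpd3: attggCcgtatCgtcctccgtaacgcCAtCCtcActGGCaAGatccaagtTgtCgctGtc
Coding bases 649 to 708, from inside the longest shared run, had no difference, so a read from this stretch fits both genes. The stretch lies at II:2808285-2808344 in tdh1 and II:579379-579438 in gpd3.
both genes: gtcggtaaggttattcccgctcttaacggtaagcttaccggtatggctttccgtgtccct

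The enolase genes were less alike, with 836 of 1320 aligned bases identical (63.3%). Their longest identical run was 18 bases and 0 of the 1293 windows of 31 bases in eno102 occurred in eno101. The 60 bases around that longest run, with the 16 differing bases in capitals, lie at II:2201384-2201443 on the plus strand for eno101 and at II:59437-59496 on the minus strand for eno102.
eno101: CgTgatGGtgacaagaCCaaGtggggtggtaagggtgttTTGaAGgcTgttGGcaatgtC
eno102: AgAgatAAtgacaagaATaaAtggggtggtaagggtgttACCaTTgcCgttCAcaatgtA

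The deposited values are FPKM, fragments per kilobase of transcript per 1000000 fragments, and levels below are FPKM after a further scaling between libraries by factors of 0.971 to 1.067. Depth, recovered from the FPKM themselves, was 26.2 to 102 M reads per library (1 M is 1000000), and all libraries of mit1D and chp2D had 46.5 M or fewer. The deleted genes were at 0.117% (mit1), 13.8% (clr3), 18.6% (clr1) and 31.1% (chp2) of the wild-type level in their own deletion strains. The level of clr2 in the libraries labelled clr2D was 76.2% of wild type, which goes against a loss of the whole transcript, while his7, the marker of that deletion per the labels, was at 234%. In the other deletions clr2 was at 137% (clr1D), 149% (clr3D), 104% (mit1D) and 94.5% (chp2D) of wild type. Which part of clr2 was removed is not stated, and clr2D stands below for the libraries so labelled. Differences were tested with limma on log2(level + 1) over 6693 genes, and a gene was called at a Benjamini-Hochberg adjusted p under 0.05. Log2 fold changes are given ± SE on that scale, which understates the change of weakly expressed genes. The 10 genes together took 4.63 to 5.77% of the reads assigned to genes in a library. The share was on average lowest in clr3D, at 4.63, 5.05 and 4.74%, against 5.18, 5.77 and 5.33% in wild type.

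In wild type the 10 genes spanned the range of the transcriptome. Expressed per length, tdh1 had the highest level of all 7018 genes (10651 ± 990 scaled FPKM, mean ± SD, n = 3). It was followed by fba1 (6878 ± 549, rank 3), eno101 (5863 ± 481, rank 4), pgk1 (3375 ± 366, rank 13), tpi1 (2620 ± 154, rank 35), pyk1 (2440 ± 176, rank 40) and adh1 (2321 ± 168, rank 44). The wild-type libraries of tdh1, fba1, eno101 and pgk1 did not overlap with those of the next gene in this order, whereas those of tpi1, pyk1 and adh1 overlapped one another. Far below lay gpd3 (316 ± 52.0, rank 415), and lowest were fbp1 (11.1 ± 0.967, rank 5497) and eno102 (6.42 ± 0.904, rank 5985). The level of adh1 is set by a transcript length of 3463 bases in the deposited table, 2.17 times the 1598 bases of the gene in RefSeq, so that its place in the order is low relative to that length.

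**Figure D1:**
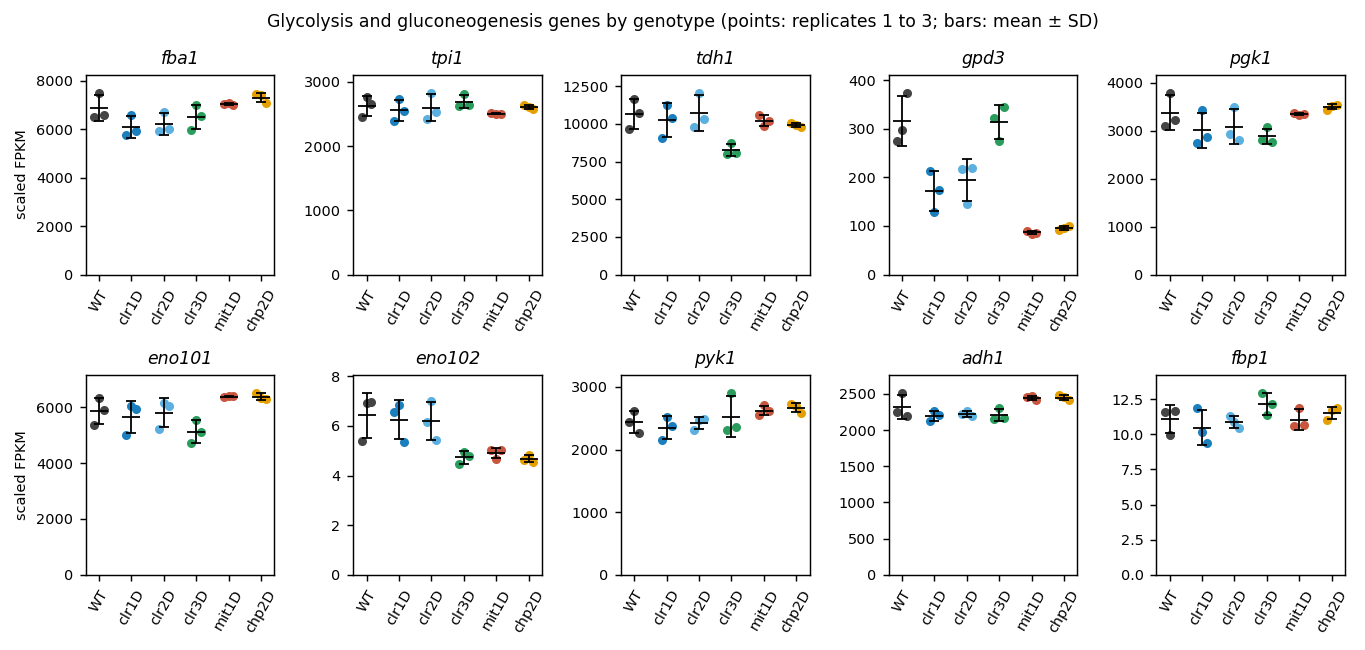
Scaled FPKM (y axes, from 0, a separate scale for each gene) of the 10 genes in the 6 genotypes (x axes); points are the 3 replicate libraries and bars the mean ± SD. The level of gpd3 is near 316 in wild type and clr3D, and 86.6 and 96.4 in mit1D and chp2D, while the abundant glycolytic genes differ by at most 1.3 times between group means.

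Across the deletions only GAPDH and enolase genes passed the test in the main fit, and each of these calls was a lower level. The minor GAPDH gene gpd3 fell in clr1D, clr2D, mit1D and chp2D, the major GAPDH gene tdh1 fell in clr3D, and the minor enolase gene eno102 fell in clr3D, mit1D and chp2D. In this fit, which has no replicate block, the other 7 genes were not called in any deletion against wild type, and no member was called higher. With a block for the replicate number added to the fit, fba1 in clr1D and eno101 and pgk1 in clr3D were also called, each lower. In clr1D 1 of the 10 genes was called, and it was lower; of all tested genes 17.6% were called, 9.31% higher and 8.29% lower. In clr2D 1 of the 10 was called lower, beside 12.3% of all genes called, 7.31% higher and 4.99% lower. In clr3D 2 of the 10 were called lower, beside 29.0% of all genes called, 14.9% higher and 14.1% lower. In mit1D 2 of the 10 were called lower, beside 27.2% of all genes called, 14.7% higher and 12.5% lower. In chp2D 2 of the 10 were called lower, beside 22.6% of all genes called, 12.0% higher and 10.7% lower. With 10 genes, these counts are near the shares over all genes. The median log2 fold change of the 10 genes was 0.05 in chp2D, -0.01 in mit1D, -0.03 in clr2D and -0.07 in both clr1D and clr3D, and that of all tested genes lay between -0.01 and 0.00.

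**Figure D2:**
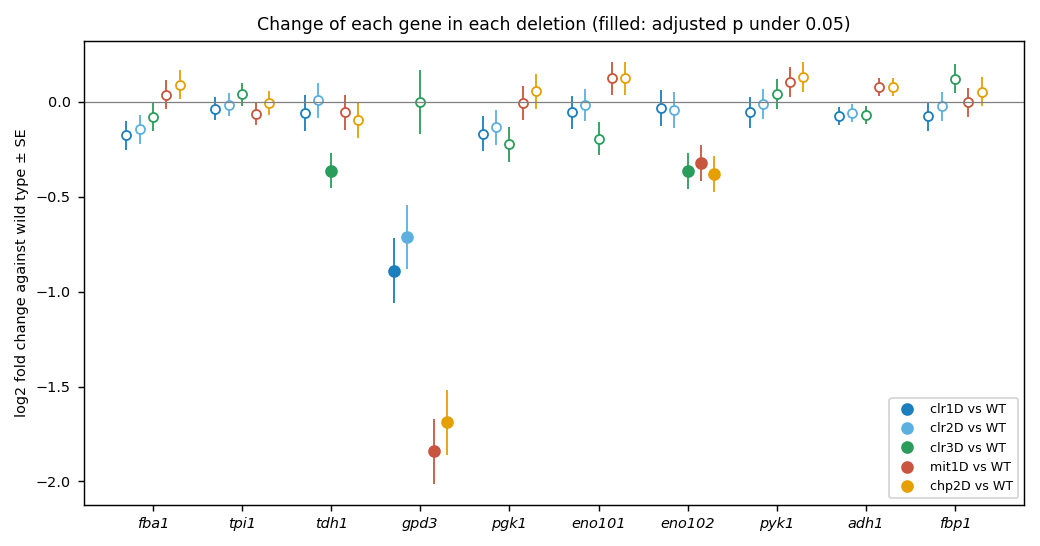
Log2 fold change ± SE against wild type (y axis) of each of the 10 genes (x axis) in the 5 deletions (colours); filled points have an adjusted p under 0.05 in limma. The filled points are all below 0, and the lowest are those of gpd3 in mit1D (-1.84) and chp2D (-1.69).

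The gene gpd3 (SPBC354.12; II 578063 to 580056 in build ASM294v2, the build of all gene positions below) encodes the less abundant GAPDH. In wild type its replicates 1, 2 and 3 had a scaled FPKM of 275, 298 and 374. The clr1D libraries, in the same order, had 212, 129 and 175, and the clr2D libraries 218, 145 and 220. Every library of these deletions thus lay below every wild-type library, and the libraries of clr1D and clr2D overlapped each other. In clr3D the values were 323, 275 and 344, within the spread of wild type. In mit1D the values were 89.3, 84.2 and 86.3, and in chp2D they were 92.6, 96.0 and 101. The libraries of mit1D and chp2D were the lowest of the 18 and varied little among themselves, with a coefficient of variation of 3.01 and 4.29% against 16.5% in wild type. In bulk cultures such as these, fewer cells with the RNA and less RNA per cell cannot be told apart.

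In means, gpd3 fell 1.84-fold in clr1D (log2 fold change -0.89 ± 0.17, limma adjusted p = 0.00183) and 1.63-fold in clr2D (-0.71 ± 0.17, adjusted p = 0.0121). It fell 3.65-fold in mit1D (-1.84 ± 0.17, adjusted p = 2.31e-06) and 3.27-fold in chp2D (-1.69 ± 0.17, adjusted p = 8.22e-06). In clr3D the log2 fold change was 0.00 ± 0.17 (adjusted p = 0.996). The calls in clr1D, mit1D and chp2D were made under each of the 13 alternative settings. That in clr2D was lost without wild-type replicate 3 (-0.58, adjusted p = 0.0614), without clr2D replicate 2 (-0.52, adjusted p = 0.0614) and in a fit of clr2D and wild type alone (adjusted p = 0.0744).

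The contrast between clr3D and the other clr deletions was then tested directly, a comparison chosen after its values had been seen. The level of gpd3 was 1.83-fold lower in clr1D than in clr3D (log2 difference -0.89 ± 0.17, limma adjusted p = 0.000996) and 1.62-fold lower in clr2D than in clr3D (-0.71 ± 0.17, adjusted p = 0.00529). Of the 10 genes 2 were called higher and 1 lower in clr1D than in clr3D, where 17.1% of all genes were higher and 18.1% lower. The same numbers, 2 and 1, held for clr2D against clr3D, with 15.7% of all genes higher and 16.0% lower. The genes called higher in both comparisons were tdh1 and eno102. Between mit1D and chp2D 0 of the 10 genes were called (0 also at an unadjusted limma p under 0.05), where 0.164% of all genes were called, 0.0896% higher and 0.0747% lower. There the libraries of gpd3 did not overlap, but the log2 difference was -0.15 ± 0.17 (limma adjusted p = 0.997). That SE comes from the spread over all 6 groups, while gpd3 had a coefficient of variation of 3.01% in mit1D and 4.29% in chp2D.

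A row next to gpd3 moved with it. SPBC354.11c (II 574658 to 578723) shares 661 bases with gpd3, and its level over the 18 libraries had a Pearson r of 0.994 with that of gpd3, the highest of any tested gene outside the 10. Its scaled FPKM was 12.0 ± 1.99 in wild type, 4.92 ± 0.265 in mit1D, 5.16 ± 0.195 in chp2D, 8.26 ± 1.62 in clr1D, 8.83 ± 1.50 in clr2D and 12.2 ± 1.81 in clr3D. It was called lower in mit1D (log2 fold change -1.12 ± 0.14, limma adjusted p = 3.66e-05), in chp2D (-1.06 ± 0.14, adjusted p = 7.8e-05) and in clr1D (-0.49 ± 0.14, adjusted p = 0.0234). The clr1D call was lost without wild-type replicate 3 or clr1D replicate 2 (adjusted p = 0.111 for each) and in a fit of only those groups (adjusted p = 0.0961). In clr2D the adjusted p was 0.0729, or 0.0165 with a replicate block. The row is not in the RefSeq table, and its reads and those of gpd3 cannot be told apart where they overlap.

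The major GAPDH gene tdh1 (SPBC32F12.11; II 2807534 to 2809051) had levels of 9642, 11621 and 10691 in wild type and of 7978, 8740 and 8087 in clr3D. All clr3D libraries lay below all wild-type libraries, and they were also the lowest 3 of the 18. The fall was 1.29-fold (log2 fold change -0.36 ± 0.09, limma adjusted p = 0.00856) and was called under each of the 13 alternatives, with a log2 fold change of -0.19 under quantile normalization. In clr1D the levels were 9057, 11277 and 10381, in clr2D 9811, 12070 and 10317, in mit1D 10598, 9843 and 10212, and in chp2D 10064, 9949 and 9806. These libraries overlapped with wild type in each group, with log2 fold changes from -0.10 to 0.01, each with an SE of 0.09, and adjusted p from 0.492 to 0.969. Directly compared, tdh1 was 1.24-fold higher in clr1D than in clr3D (0.30 ± 0.09, adjusted p = 0.0191) and 1.3-fold higher in clr2D than in clr3D (0.37 ± 0.09, adjusted p = 0.00695). The first of these calls was made under 8 of 13 alternatives. It was lost in a fit of only those groups (adjusted p = 0.0964) and without clr1D replicate 2 or 3 or clr3D replicate 1 or 3 (adjusted p from 0.0539 to 0.0864).

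Set beside each other within a library, the GAPDH isozymes differed in proportion between genotypes. The share of gpd3 in the summed level of gpd3 and tdh1 was 2.77, 2.50 and 3.38% in wild type. It was 0.836, 0.848 and 0.838% in mit1D and 0.911, 0.956 and 1.02% in chp2D. For clr1D the values were 2.29, 1.13 and 1.66% and for clr2D 2.17, 1.19 and 2.09%, all below the wild-type libraries. For clr3D, where tdh1 rather than gpd3 was lower, the share was 3.89, 3.05 and 4.08%, which overlapped with wild type. The log2 ratio of gpd3 to tdh1 differed from wild type by -1.80 ± 0.13 in mit1D, -1.60 ± 0.14 in chp2D, -0.84 ± 0.33 in clr1D and -0.73 ± 0.32 in clr2D (2-sided exact permutation p = 0.1 for each, the smallest that 3 against 3 libraries allow). Without clr2D replicate 2 the difference in clr2D was -0.44. In clr3D the difference was 0.36 ± 0.19 (exact permutation p = 0.2). Because tdh1 is so much more abundant, the summed level followed tdh1: it was 10967 ± 1005 in wild type, 10304 ± 380 in mit1D, 10036 ± 125 in chp2D and 8583 ± 381 in clr3D (mean ± SD, n = 3).

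**Figure D3:**
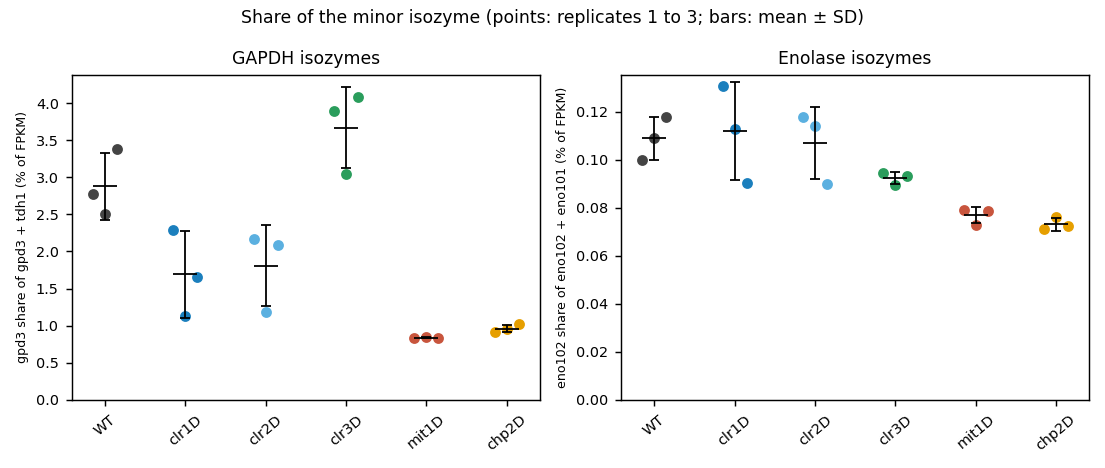
Share of the minor isozyme in the summed scaled FPKM of each isozyme pair (y axes, percent, from 0) by genotype (x axes); points are the 3 replicate libraries and bars the mean ± SD. For GAPDH (left) mit1D and chp2D sit between 0.836 and 1.02%, below all other libraries, and for enolase (right) they sit below 0.08%, below all wild-type libraries.

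The major enolase gene eno101 (SPBC1815.01; II 2201159 to 2202652) was at 5370, 6331 and 5888 in wild type and 4729, 5532 and 5116 in clr3D. These groups overlapped, and the log2 fold change of -0.19 ± 0.09 did not pass (limma adjusted p = 0.104). With a replicate block over all 18 libraries it did (adjusted p = 0.0277). The shared replicate numbers of wild type and the clr strains allow such a block, whereas the numbers of mit1D and chp2D did not pair. In mit1D the levels of 6361, 6385 and 6384 lay just above the highest wild-type library. They were 6505, 6332 and 6293 in chp2D, and the log2 fold change was 0.12 ± 0.09 in both (adjusted p = 0.301 and adjusted p = 0.316). In clr1D and clr2D the differences were -0.06 ± 0.09 and -0.02 ± 0.09.

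The minor enolase gene eno102 (SPBPB21E7.01c; II 58136 to 59704, near the left end of the chromosome) was at 5.37, 6.94 and 6.94 in wild type. It was at 4.47, 4.96 and 4.77 in clr3D, at 5.04, 4.67 and 5.03 in mit1D and at 4.63, 4.83 and 4.55 in chp2D. Each of these libraries lay below the lowest of wild type, although wild-type replicate 1 was closer to them than to the other wild-type libraries. The fall was 1.36-fold in clr3D (log2 fold change -0.37 ± 0.10, limma adjusted p = 0.0101), 1.31-fold in mit1D (-0.32 ± 0.10, adjusted p = 0.0216) and 1.37-fold in chp2D (-0.38 ± 0.10, adjusted p = 0.0102). In clr1D (6.56, 6.83 and 5.36) and clr2D (6.14, 6.99 and 5.44) the level overlapped with wild type, with log2 fold changes of -0.03 ± 0.10 and -0.04 ± 0.10. Directly compared, eno102 was 1.32-fold higher in clr1D than in clr3D (0.33 ± 0.10, adjusted p = 0.0138) and 1.31-fold higher in clr2D than in clr3D (0.32 ± 0.10, adjusted p = 0.0185).

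Against wild type, the eno102 call in clr3D was made under each of 13 alternatives, that in mit1D under 9 and that in chp2D under 11. The calls against clr3D were made under 9 for clr1D and 10 for clr2D. The former was lost under quantile normalization (adjusted p = 0.106) and without clr1D replicate 1 or 2 or clr3D replicate 1 (adjusted p from 0.0505 to 0.065), and the latter under quantile normalization (adjusted p = 0.122) and without clr2D replicate 2 (adjusted p = 0.0943) or clr3D replicate 1 (adjusted p = 0.0662). Against wild type, the mit1D call was lost under quantile normalization (limma adjusted p = 0.0567) and without mit1D replicate 2 (adjusted p = 0.0803). It was also lost without wild-type replicate 2 (adjusted p = 0.0841) or 3 (adjusted p = 0.0934). The chp2D call was lost under quantile normalization (adjusted p = 0.0506) and without wild-type replicate 3 (adjusted p = 0.051). The values rest on 190 to 1113 recovered reads per library. They could not be assigned to a strand: the non-coding RNA SPNCRNA.1302 (II 58453 to 59684), which RefSeq places on the opposite strand, lies within eno102 over its 1232 bases. Over the wild-type libraries eno102 had 496 to 1113 recovered reads and SPNCRNA.1302 had 485 to 1075, and their Pearson r over the 18 libraries was 0.999. SPNCRNA.1302 was called lower in the same deletions, with log2 fold changes of -0.38 ± 0.10 in clr3D, -0.32 ± 0.10 in mit1D and -0.38 ± 0.10 in chp2D (adjusted p = 0.00866, 0.0258 and 0.0121). Reads of the enolase mRNA and of this RNA cannot be told apart.

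Within the enolase pair the share of eno102 was 0.109 ± 0.00891% in wild type, 0.112% in clr1D, 0.107% in clr2D, 0.0924% in clr3D, 0.077% in mit1D and 0.0732% in chp2D. The log2 ratio to eno101 differed from wild type by -0.24 ± 0.07 in clr3D, -0.50 ± 0.08 in mit1D and -0.57 ± 0.08 in chp2D (exact permutation p = 0.1 for each). It differed by 0.02 ± 0.17 in clr1D and -0.03 ± 0.14 in clr2D (exact permutation p = 0.9 and p = 0.8).

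Of the single-copy steps, aldolase (fba1, SPBC19C2.07; II 1688336 to 1689599) was at 6524, 7510 and 6600 in wild type and 5750, 6600 and 5910 in clr1D. The groups overlapped, and the log2 fold change of -0.18 ± 0.08 did not pass (limma adjusted p = 0.124), whereas with the replicate block it did (adjusted p = 0.0289). In the other deletions fba1 differed by -0.15 ± 0.08 (clr2D) to 0.09 ± 0.08 (chp2D). Phosphoglycerate kinase (pgk1, SPBC14F5.04c; II 4157821 to 4159543) was at 3104, 3790 and 3229 in wild type and 2812, 3066 and 2771 in clr3D. These libraries did not overlap, and the log2 fold change was -0.22 ± 0.09 (adjusted p = 0.0829, or adjusted p = 0.0161 with the replicate block). Elsewhere pgk1 differed by -0.17 ± 0.09 (clr1D) to 0.06 ± 0.09 (chp2D). In clr3D the means of tdh1, pgk1 and eno101 were thus 77.6, 85.4 and 87.4% of wild type, with tdh1 called without the block, while those of fba1, tpi1, pyk1 and adh1 were 94.7 to 103%.

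Triose phosphate isomerase (tpi1, SPCC24B10.21; III 939913 to 940869) had the most even level of the 10 genes, with group means from 2505 in mit1D to 2690 in clr3D. Its log2 fold changes lay between -0.06 and 0.04, each ± 0.06. Pyruvate kinase (pyk1, SPAC4H3.10c; I 3844743 to 3846645) had group means from 2348 ± 184 in clr1D to 2669 ± 71.3 in chp2D, against 2440 ± 176 in wild type. Its log2 fold changes lay between -0.06 and 0.13, each ± 0.08, and its libraries overlapped with wild type in every deletion.

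Alcohol dehydrogenase (adh1, SPCC13B11.01; III 1589427 to 1592889) was at 2254, 2512 and 2195 in wild type, at 2456, 2466 and 2416 in mit1D and at 2481, 2451 and 2417 in chp2D. Wild-type replicate 2 was above both deletions and the other wild-type libraries were below them. The log2 fold change was 0.08 ± 0.05 in both (limma adjusted p = 0.245 and adjusted p = 0.247), and without wild-type replicate 2 it was 0.14 in both (adjusted p = 0.0354 and adjusted p = 0.0372). In the clr deletions it was -0.06 to -0.08. The listed interval of adh1 shares 2894 bases with that of SPCC13B11.02c, and over the wild-type libraries these rows had 396395 to 776692 and 396546 to 776918 recovered reads, so that nearly the same reads stand behind both.

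The gluconeogenic gene fbp1 (SPBC1198.14c; II 197660 to 199474) was low in all 18 libraries. Its scaled FPKM was 11.6, 9.96 and 11.7 in wild type, 11.9, 10.2 and 9.36 in clr1D, and 11.3, 10.9 and 10.4 in clr2D. It was 12.9, 11.3 and 12.1 in clr3D, 10.6, 11.9 and 10.7 in mit1D, and 11.0, 11.7 and 11.8 in chp2D. Every deletion overlapped with wild type. The log2 fold changes were -0.08 (clr1D), -0.02 (clr2D), 0.12 (clr3D), 0.00 (mit1D) and 0.05 (chp2D), each ± 0.08, and the smallest limma adjusted p was 0.252. These values rest on 541 to 2163 recovered reads per library. The non-coding RNA SPNCRNA.1324, on the opposite strand in RefSeq, spans all 1815 bases of the fbp1 interval, and the level of fbp1 cannot be told apart from it.

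The replicates of wild type and the clr strains also differed among themselves, and the abundant genes did so together. In the library numbered 2, the levels of 7 of the 7 abundant genes (tdh1, fba1, eno101, pgk1, tpi1, pyk1 and adh1) were the highest of the group in wild type, in clr1D and in clr3D, and 6 of 7 were in clr2D. The same libraries held the lowest gpd3 of their group in clr1D (129 against 212 and 175), clr2D (145 against 218 and 220) and clr3D (275 against 323 and 344), but not in wild type. In wild type and each clr strain they also held the highest phosphoglycerate mutase gene gpm1 and pyruvate decarboxylase gene pdc101 of their group. The alcohol dehydrogenase gene adh4 was lowest in them. This order was not counted over all genes. Library number 1 held the lowest level of 7 of the 7 genes in clr1D, 6 in clr3D, 5 in wild type and 5 in clr2D. In chp2D library number 1 was highest for 6 of the 7 genes and library number 3 lowest for 6, while in mit1D no library was highest for more than 4. The coefficient of variation of each of these genes was below 4% in both mit1D and chp2D. The levels of gpd3 differed between replicates by up to 1.65 times in clr1D and 1.52 times in clr2D, and by 1.06 times in mit1D and 1.09 times in chp2D.

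**Figure D4:**
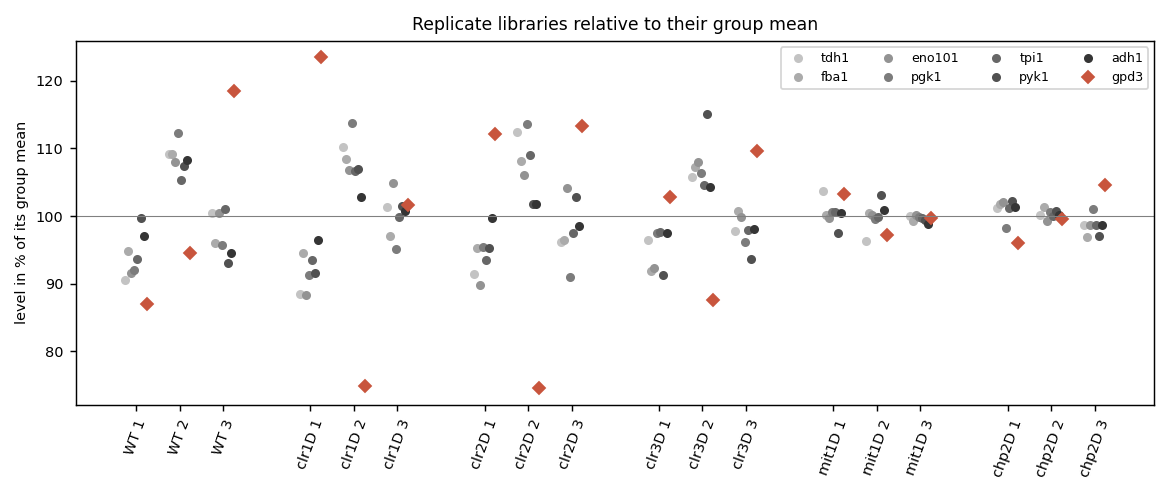
Level of each abundant gene (grey circles) and of gpd3 (red diamonds) in percent of its group mean (y axis) in each of the 18 libraries (x axis); the line marks 100%. In replicate 2 of clr1D, clr2D and clr3D the grey circles lie above the line and the diamond below it, and in mit1D and chp2D all points lie close to the line.

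Other genes of sugar metabolism were read from 9 lists with 59 names, of which 55 were found and tested. In clr3D 16 of these genes were called higher and 6 lower, in mit1D 10 and 4, in chp2D 8 and 5, in clr1D 8 and 5 and in clr2D 6 and 4. Over all tested genes the shares called higher and lower were 14.9 and 14.1% in clr3D, 14.7 and 12.5% in mit1D, 12.0 and 10.7% in chp2D, 9.31 and 8.29% in clr1D, and 7.31 and 4.99% in clr2D. Between mit1D and chp2D 0 of the 55 were called. The naming rule took genes with a log2 fold change of at least 0.5 in either direction. By it, pdc102 (SPAC186.09; I 5552811 to 5554529), a pyruvate decarboxylase gene near the right end of chromosome I, had the largest changes. Its scaled FPKM was 1.37, 0.843 and 1.06 in wild type. It was 5.59, 5.69 and 5.77 in clr3D, 5.0, 4.55 and 5.42 in clr2D, and 4.27, 3.90 and 4.40 in clr1D. The clr deletions thus lay far above wild type, with log2 fold changes of 1.69 ± 0.09, 1.52 ± 0.09 and 1.32 ± 0.09 (limma adjusted p = 4.52e-09, 1.34e-08 and 6.4e-08). In mit1D and chp2D pdc102 was at 1.08 ± 0.140 and 1.11 ± 0.111, with log2 fold changes of 0.00 ± 0.09 and 0.02 ± 0.09. Against the main pyruvate decarboxylase gene pdc101, at 4736 per length in wild type, these levels are small.

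The glycerol dehydrogenase gene gld1 (SPAC13F5.03c; I 2174641 to 2177050) was at 6.72, 4.44 and 6.17 in wild type. It was at 12.2, 11.1 and 7.87 in clr1D, at 11.5, 12.0 and 13.7 in clr2D and at 11.0, 8.57 and 10.7 in clr3D, all above wild type. It rose by a log2 fold change of 0.74 ± 0.14, 0.998 ± 0.14 and 0.72 ± 0.14 (limma adjusted p = 0.00143, 0.000133 and 0.00121). The aldehyde dehydrogenase gene atd2 (SPAC922.07c; I 5486848 to 5488830) was at 17.4 ± 1.16 in wild type, 27.1 ± 1.31 in mit1D (0.61 ± 0.09, adjusted p = 0.000144) and 25.1 ± 0.926 in chp2D (0.50 ± 0.09, adjusted p = 0.000844). It also rose in clr3D (0.32 ± 0.09, adjusted p = 0.012) and clr1D (0.28 ± 0.09, adjusted p = 0.0389), and was at 0.26 ± 0.09 in clr2D (adjusted p = 0.0669). The aldehyde dehydrogenase genes atd1 and atd3 were outside the naming rule. The level of atd1 was far higher, at 963.5 ± 56.5 in wild type. It fell in mit1D (-0.41 ± 0.09, limma adjusted p = 0.00297) and chp2D (-0.40 ± 0.09, limma adjusted p = 0.00435), where atd3 was not called. The gene gpa2 (SPAC23H3.13c; I 2516053 to 2519235), for the G protein subunit that relays glucose to adenylate cyclase, fell in clr1D from 47.9 ± 3.04 to 33.5 ± 3.50 (-0.51 ± 0.08, adjusted p = 0.000333). It also fell in clr2D (-0.47 ± 0.08, adjusted p = 0.000822) and chp2D (-0.24 ± 0.08, adjusted p = 0.0389), and was at -0.14 ± 0.08 in clr3D and -0.09 ± 0.08 in mit1D.

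The genes in the rest of this paragraph were chosen after their values were seen. Of the 5 genes for pyruvate dehydrogenase and pyruvate carboxylase, pda1, pdb1, pdx1 and pyr1 rose in both mit1D and chp2D, where 14.7 and 12.0% of all tested genes rose. In mit1D the log2 fold changes were 0.32, 0.19, 0.29 and 0.42 and in chp2D 0.27, 0.18, 0.31 and 0.32 (limma adjusted p at most 0.0333). The remaining gene dlp1 was not called, at -0.08 ± 0.04 in mit1D (limma adjusted p = 0.128) and -0.05 ± 0.04 in chp2D (limma adjusted p = 0.347). The 3 trehalose genes rose in clr3D, where 14.9% of all tested genes rose: tps1 and tpp1, for its synthesis, by 0.39 ± 0.11 and 0.13 ± 0.05, and ntp1, for the trehalase that degrades it, by 0.28 ± 0.07 (adjusted p = 0.0126, 0.0474 and 0.00471). Phosphoglycerate mutase (gpm1), the step between pgk1 and enolase, fell in clr3D from 5211 to 4488 (-0.22 ± 0.06, adjusted p = 0.0186). The hexokinase genes went opposite ways in clr1D and clr2D, hxk1 rising by 0.22 and 0.19 and hxk2 falling by 0.37 and 0.30 on the log2 scale (the hxk2 call in clr2D was at adjusted p = 0.0468). Of 16 regulators of fbp1, 5 were called higher and 0 lower in clr3D, beside 14.9 and 14.1% of all tested genes. They included the phosphodiesterase gene cgs2 (0.31 ± 0.05, adjusted p = 0.00016). Of the same 16 genes 2 rose and 2 fell in clr1D, 1 rose and 2 fell in clr2D, 0 rose and 1 fell in mit1D, and 0 rose and 2 fell in chp2D. Of all tested genes 9.31% rose and 8.29% fell in clr1D, and 7.31% rose and 4.99% fell in clr2D. In mit1D 14.7% rose and 12.5% fell, and in chp2D 12.0% rose and 10.7% fell.

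By Pearson r over the 18 libraries, the genes whose level was most like that of gpd3 after SPBC354.11c were sfp1 (0.942), win1 (0.941), mei2 (0.94) and the non-coding RNA omt3 (0.937). The libraries share their genotype groups, and no test is attached to these values. Like gpd3, mei2 was at 2.48 ± 0.471 in mit1D and 2.67 ± 0.387 in chp2D against 12.6 ± 3.23 in wild type, and omt3 at 2.80 ± 0.478 and 2.73 ± 0.318 against 18.4 ± 4.37. In clr3D, where gpd3 was near wild type, omt3 was 1.9 times the wild-type level (log2 fold change 0.85 ± 0.22, limma adjusted p = 0.00854). For eno102 the list after SPNCRNA.1302 was rrf1 (0.886), SPBP4H10.12 (0.882), SPBC21H7.03c (0.881) and she9 (0.874). For fbp1, which hardly differed between groups, it was gyp1 (0.79), aly1 (0.788), kin1 (0.776) and sts5 (0.773) after the overlapping SPNCRNA.1324 (0.939).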

How the data were processed

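The authors deposited a table with an FPKM value for each gene in each library. Per the submitters' processing notes, reads were aligned with GSNAP (version 2013-02-25) to ASM294v2. The counting program, its strand setting and its treatment of reads with several matches were not given in the sources used here. Multiplied by transcript length, the FPKM values were multiples of whole reads (100% of values within 0.1 read), from which depth was recovered. Counting error is small for the abundant genes. The table has 3 sample columns tied to no sample, which were not used. Of the IDs, 6843 matched RefSeq assembly ASM294v3 and 4409 of them had a symbol. RefSeq supplied names and sequences, and its coordinates are given with sequences alone.

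Libraries were scaled by the median ratio to the geometric mean over 6484 genes that reached an FPKM of 1 in each of the 18. The 6693 genes that reached it in 3 or more libraries were tested as log2(scaled FPKM + 1) with limma 3.58.1 (trend) in R 4.3.3, in 1 fit of 18 libraries, with Benjamini-Hochberg adjustment within each comparison; the procedure was tested on simulated data. Folds are ratios of group means. Isozyme ratios were tested per library by exact permutation. P-values from limma rest on a spread between the labelled biological replicates that is shared over all 6 groups. The SE of a gene is thus the same in each comparison, also where the groups compared vary less. The permutation tests use only the replicates of the groups compared. Python 3.11.15, Biopython 1.88, matplotlib 3.10.9, NumPy 2.4.6 and pandas 2.3.3 were also used.

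Libraries of the same number in wild type and the clr strains deviated together, so these numbers were taken to pair the samples. The r was 0.25 to 0.563 for each clr strain with wild type and for clr1D and clr2D with clr3D. For mit1D and chp2D such libraries did not deviate together (-0.119 to 0.125). The main fit and the permutation tests leave the pairing out, and it enters only through the replicate block among the alternatives. That block was fitted over all 18 libraries, those of mit1D and chp2D included. The alternatives were FPKM as deposited, quantile normalization, a pseudocount of 0.1, no filter, a fit of only the 2 groups, voom on the recovered reads, a replicate block and leaving out each replicate. Named genes were the 10 members, genes of the sugar metabolism lists with an adjusted p under 0.05 and an absolute log2 fold change of at least 0.5 (up to 8 per comparison), and the 5 genes most like gpd3, eno102 and fbp1. The members and lists were chosen with earlier results of these data known. The names glk1, gpm2 and gpm3 were not found, and zwf2 is a synonym of the listed gcd1.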

Additional observations from a re-analysis of the deposited data

How the results depend on the processing

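No value that was called changed direction under any alternative. Of the counts, 18 moved by over 1.5 times; in the other 270 recomputed counts and isozyme ratios a count did not, and no ratio gained or lost a call, since none can be called with 3 libraries against 3. The ratio of eno102 to eno101 changed sign when 1 library was left out, from -0.11 to 0.16 in clr1D (0.02 with all) and from -0.11 to 0.09 in clr2D (-0.03). Of the log2 fold changes of single genes, 1208 stayed on their side of the threshold, 23 gained a call and 30 lost one. With the replicate block, 2 members were called in clr1D (1 without it) and 4 in clr3D (2), as 4 also were in clr3D with FPKM as deposited. Over all genes the block also raised the number called, to 1489 in clr1D (1178) and 2287 in clr3D (1941). With FPKM as deposited 1679 of all genes were called in clr3D. The block changed no other call of a member against wild type. The isozyme ratios with pairing are among the 270 and could not differ, since a mean of paired differences equals the difference of means. For GAPDH in clr1D the paired value was -0.84 (exact sign-flip p = 0.25, the smallest that 3 pairs allow). Fits of only the 2 groups called 0 members in clr2D (1) and fewer other sugar genes: 7 in clr1D (13), 5 in clr2D (10), 10 in clr3D (22) and 14 in clr2D against clr3D (23). Over all genes they called 544 in clr1D (1178), 326 in clr2D (823) and 1089 in clr3D (1941). Leaving out 1 library gave 0 to 1 members in clr2D (0 without wild-type replicate 3 or clr2D replicate 2), 1 to 2 in mit1D (1 without wild-type replicate 3 or mit1D replicate 2), 1 to 3 in chp2D (1 without wild-type replicate 3) and 1 to 4 in clr1D against clr3D (1 without clr1D replicate 2 or clr3D replicate 1). It gave 13 to 20 other sugar genes in clr3D (13 without clr3D replicate 1, 14 without clr3D replicate 3 or wild-type replicate 1). The number called over all genes fell in these fits too. In the order named, it was 586 and 560 in clr2D (823), 1326 and 1295 in mit1D (1820), and 1575, 1587 and 1610 in clr3D (1941). The eno102 call in mit1D had an adjusted p of up to 0.0934 in limma, and that in chp2D of up to 0.051. With quantile normalization adh1 was called higher in mit1D (adjusted p = 0.00515) and pyk1 in mit1D (adjusted p = 0.0207) and chp2D (adjusted p = 0.035). The eno102 calls in mit1D and chp2D were lost under it. This normalization ties genes of equal rank, which limits it for the most abundant genes. With FPKM as deposited the share of called genes that were higher moved in chp2D from 52.9 to 32.9%, in mit1D from 54.1 to 39.5%, in clr2D from 59.4 to 73.2% and in clr1D from 52.9 to 79.4%, and no call of a member reversed. Depth limits eno102 and fbp1, with as few as 190 and 541 reads, more than the abundant genes. Causes of these shifts were not tested.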
